A study of Homo sapiens with 6 samples.

Results

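The 10 genes described here move iron into, through and out of the cell: TF, TFRC, STEAP3 and SLC11A2 on the uptake side, FTH1 and FTL in storage, HMOX1 in heme breakdown, and SLC40A1, CP and HEPH on the export side. They were taken by name from a table of 21676 gene symbols, and each of the 10 was listed in it. The data are RNA sequencing counts from the 83 cell line, which the submitters call a SACC cell without spelling the letters out. Of its 6 libraries 3 were controls and 3 came from cells that overexpressed ApoD, a secreted lipid-binding lipocalin. The labels give no vector, no clone, no time point and no treatment of the control cells. They number the libraries of each group without saying that these came from separate cultures, so every p-value rests on library-to-library spread that may be technical only.

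Cells take up iron mainly as transferrin, a serum protein that binds ferric iron and enters by way of the transferrin receptor. In the endosome a STEAP reductase turns the iron ferrous, and a divalent metal transporter passes it to the cytosol. What is not used is stored in ferritin, a shell of heavy and light chains, or leaves through ferroportin, the known cellular iron exporter. A ferroxidase of the multicopper family, ceruloplasmin or hephaestin, oxidises the exported iron so that transferrin can bind it. Iron regulatory proteins (IRPs) adjust several of these transcripts by binding a stem-loop, the iron-responsive element (IRE).

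Library totals ran from 37542568 to 40416964 counts. APOD itself had 2 to 9 counts in the controls and 528 to 628 with ApoD overexpression. All 8 epithelial markers examined were detected in every library, with summed levels of 2888 to 3797 CPM in controls and 3254 to 3633 CPM with ApoD overexpression. Of these EPCAM (−0.30), TP63 (−1.05), CDH1 (−1.29), KRT14 (−1.75) and KRT19 (−2.46) were called lower on the log2 scale, and their part in the results was not tested. Of 6 genes linked to adenoid cystic carcinoma, a possible reading of SACC, MYB, MYBL1 and NFIB were detected while KIT, SOX10 and NTRK3 were not listed. Of 14629 tested genes 48.8% passed an edgeR adjusted p of 0.05, with 24.2% higher and 24.6% lower with ApoD overexpression. The groups' libraries did not overlap in 58.7% of tested genes, and in 29.7% all ApoD overexpression libraries were the lower ones. CPM below means counts per 1000000 counts of the library, with the total scaled by edgeR's TMM factors. Changes are log2 fold changes of ApoD overexpression over control, with their standard error (SE). In bulk RNA, fewer cells that express a gene and less RNA per cell cannot be told apart.

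The IRE is shown because it is the shared element through which IRPs act on TFRC, FTL and SLC40A1, members whose levels are given next. In the 5' UTR of a transcript it lets IRPs hold back translation, and in the 3' UTR of TFRC it lets them protect the RNA from decay. Transcripts of protein-coding genes in GENCODE release 29 (GRCh38) were searched on the sense strand for an unpaired C, 5 bases, the loop CAGTGN (N is any base) and 5 bases that pair with the 5 before the loop, with at least 4 of 5 pairs in the stem below the C. This stem-loop was found in 28 of 19669 genes (0.142%), and among them were TFRC, FTH1, FTL and SLC40A1 of the members. In the sequences that follow, 29 bases each and 5' to 3', capitals mark the bulged C and the loop CAGTGN. The 4 TFRC elements found lie in its 3' UTR on the minus strand, at chr3:196050979-196051007, chr3:196050575-196050603, chr3:196050510-196050538 and chr3:196050463-196050491 in the order given. The FTL element lies in its 5' UTR on the plus strand at chr19:48965335-48965363, and the SLC40A1 element in its 5' UTR on the minus strand at chr2:189580661-189580689.
TFRC element 1: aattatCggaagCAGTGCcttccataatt
TFRC element 2: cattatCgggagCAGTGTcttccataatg
TFRC element 3: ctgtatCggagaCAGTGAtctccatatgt
TFRC element 4: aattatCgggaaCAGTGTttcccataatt
FTL element: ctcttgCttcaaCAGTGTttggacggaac
SLC40A1 element: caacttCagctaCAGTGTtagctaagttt

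On the export side the transcripts of ceruloplasmin and ferroportin were nearly absent with ApoD overexpression. Both were already low in controls, at 4.24 and 0.366 CPM. Of the uptake genes STEAP3 was lower by 46.0%. The heavy ferritin chain FTH1 was lower by 21.3%, while the changes of the light chain FTL, the transferrin receptor TFRC and the transporter SLC11A2 lay between −0.08 and −0.01 on the log2 scale and did not pass the test. In all, 8 of the 10 genes had enough counts to be tested, 4 fell (24.6% of all tested genes did) and 0 rose. No member was higher at an unadjusted p under 0.05, and DESeq2 also called 0 higher and 4 lower. CP and SLC40A1 entered the test only through their control counts, so their low side was fixed by the filter. Among the other 6 tested members, which have counts in all libraries, STEAP3 and FTH1 were the ones that fell. The plot of CPM by library shows the range of levels over which these changes lie.

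**Figure D1:**
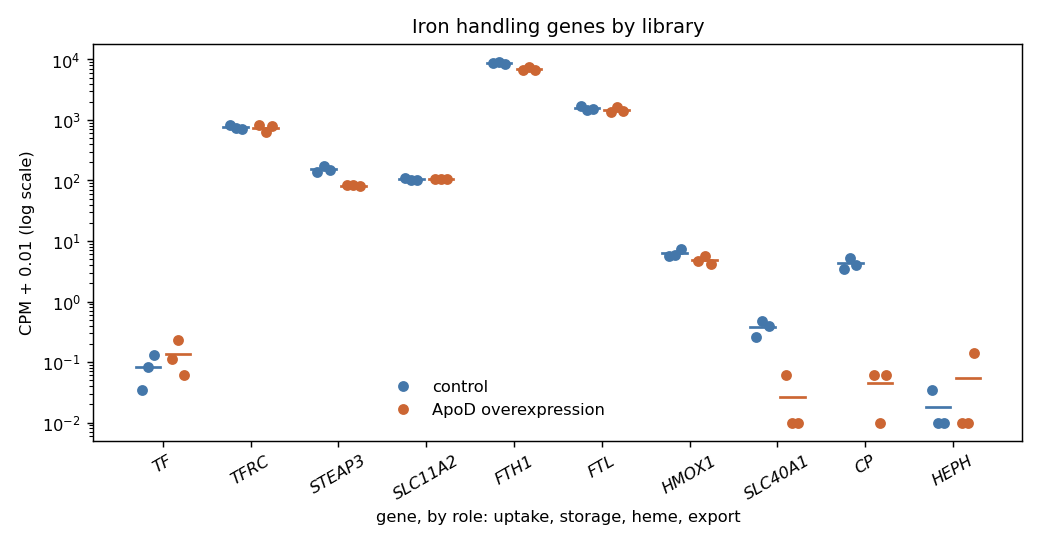
Points give each library's CPM plus 0.01 on a log axis, for 3 control libraries (blue) and 3 with ApoD overexpression (orange), and lines give the group means. CP and SLC40A1 fall to the bottom of the axis with ApoD overexpression, STEAP3 separates at about 153 against 82.6 CPM, and the points of TFRC, SLC11A2 and FTL overlap.

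CP encodes ceruloplasmin, the copper-carrying ferroxidase of plasma, which is made mainly by the liver and also by some epithelia. The control libraries held 140, 213 and 168 CP counts, and the ApoD overexpression libraries 2, 0 and 2. Every control library was far above every ApoD overexpression library. The level was 4.24 ± 0.880 CPM in controls (SD, n = 3) and 0.0343 ± 0.0297 CPM with ApoD overexpression. The ratio of the summed counts, control over ApoD overexpression, was 120 with a 95% counting interval of 46.7 to 443, which covers counting error only. The fitted change was −6.79 ± 0.50 (edgeR adjusted p = 1.82e-06), which ranked 8 among the falls of all tested genes. CP passed the filter only through its control counts, so this p-value and rank describe the fall and add no support to it. Its size rests on 4 counts with ApoD overexpression. Genes of similar abundance also leaned lower: of 2004 genes with a mean control count within 2-fold of that of CP, 38.3% were called lower and 11.3% higher, with a median change of −0.37. With CP itself, 2 of these 2004 genes fell at least as far as CP did. With the trend of change on abundance removed, CP changed by −6.13 (adjusted p = 1.89e-06).

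CP is a marker product of hepatocytes, so hepatocyte genes were examined beside it. Of 6 hepatocyte genes, APOB, TTR, FGA and FGB were not listed, and ALB and APOA1 together reached at most 0.124 CPM in any control library and 0 with ApoD overexpression. Of 4 endothelial genes 3 were detected, and their summed level ran from 8.01 to 13.3 CPM in controls and from 1.35 to 2.30 CPM with ApoD overexpression. Of 6 fibroblast genes all were listed, COL1A1 and COL3A1 were above 1 CPM in every control, and their sum ran from 26.9 to 32.6 CPM in controls and from 9.85 to 13.8 CPM with ApoD overexpression, while COL1A2, DCN and LUM were at or near 0. The endothelial and fibroblast sums were lower with ApoD overexpression, as CP was, while the hepatocyte genes were near 0 in both groups. The part of these marker genes in the result was not tested.

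The genes whose profile over the 6 libraries lay closest to that of CP were KLK8, PADI3, AGR2, EDAR and ART1. Likeness was the root mean square difference between log2 CPM profiles, each centred on its own mean. It was 0.436 for KLK8, 0.454 for PADI3, 0.564 for AGR2, 0.580 for EDAR and 0.586 for ART1. KLK8, a secreted serine protease, had 304, 765 and 691 counts in control libraries against 20, 4 and 17 under ApoD overexpression.

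SLC40A1 encodes ferroportin. Its counts were 10, 19 and 16 in the controls, against 2, 0 and 0 under ApoD overexpression. All control libraries were above all ApoD overexpression libraries, at a level near the limit of detection in both groups. The ratio of summed counts, 45 against 2, was 20.8 with a 95% counting interval of 5.42 to 177. The fitted change was −4.15 ± 0.97 (edgeR adjusted p = 0.00397). It was −6.85 without ApoD overexpression replicate 1 (adjusted p = 0.00440), since that library held the 2 counts. Like CP, SLC40A1 passed the filter only through its control counts, so these p-values add no support to the fall. SLC40A1 is also a macrophage gene. Of 6 macrophage and other leukocyte markers 5 were detected, CD163 had at most 4 counts in any library, and the summed level was 22.0 to 37 CPM in controls and 40.7 to 42.6 CPM with ApoD overexpression. CD68 made up most of that sum, at 25.4 CPM in controls and 37.7 CPM with ApoD overexpression, while CSF1R stood at 5.71 and 4.05 CPM. PTPRC had 1, 12 and 0 counts in controls and none with ApoD overexpression, and CD14 had 12, 3 and 7 against 2, 4 and 6. The part of such cells in the result was not tested. Of 1318 genes with a mean control count within 2-fold of that of SLC40A1, 14.5% were called lower and 4.78% higher.

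HEPH encodes hephaestin, a membrane-bound relative of ceruloplasmin. Its counts were 1, 0 and 0 in the controls against 0, 0 and 5 under ApoD overexpression, too low for a test. All 5 counts came from ApoD overexpression replicate 3, and the ratio of summed counts, 5.42 for ApoD overexpression over control, had a counting interval of 0.606 to 256. HEPHL1, a further multicopper ferroxidase from the list of copper genes, had 41, 73 and 80 counts in controls and 77, 61 and 102 with ApoD overexpression, and the groups overlapped. Its change of 0.42 ± 0.33 did not pass (edgeR adjusted p = 0.311). Compared per length in the deposited FPKM, a count scaled by gene length and library total, CP stood at 0.814 ± 0.169 and HEPHL1 at 0.284 ± 0.0925 in controls (SD, n = 3). With ApoD overexpression CP stood at 0.00612 ± 0.00530 and HEPHL1 at 0.349 ± 0.0820 FPKM. Of these ferroxidases CP was thus the highest in controls, and HEPHL1 was the highest with ApoD overexpression.

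TF encodes transferrin, a protein that cells in culture usually receive from the serum. Its counts were 1, 3 and 5 in the controls against 4, 8 and 2 under ApoD overexpression. The groups overlapped, the gene was not tested, and the ratio of summed counts, 1.69 for ApoD overexpression over control, had a counting interval of 0.680 to 4.42. TFRC encodes the transferrin receptor and was abundant. It stood at 825, 749 and 714 CPM in controls and at 811, 626 and 796 CPM with ApoD overexpression. The groups overlapped, and ApoD overexpression replicate 2 was the lowest of the 6. The change was −0.04 ± 0.11 (edgeR adjusted p = 0.813), with a 95% interval of −0.28 to 0.21.

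STEAP3 is the endosomal ferrireductase that works beside the transferrin receptor. It stood at 136, 171 and 152 CPM in the controls and at 84.5, 83.4 and 80 CPM with ApoD overexpression. The groups did not overlap, and the ApoD overexpression libraries lay close together. The level fell from 153 ± 17.9 to 82.6 ± 2.37 CPM (SD, n = 3), a change of −0.89 ± 0.10 (edgeR adjusted p = 3.03e-05). Over 16 alternative analyses the change of STEAP3 ran from −1.06 to −0.80. Genes of similar abundance did not lean the same way: of 2374 genes with a mean control count within 2-fold of that of STEAP3, 20% were called lower and 36.6% higher.

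SLC11A2 encodes the divalent metal transporter DMT1, which carries ferrous iron out of the endosome. It stood at 112, 102 and 103 CPM in controls and at 106, 104 and 104 CPM with ApoD overexpression. The groups overlapped. The change was −0.01 ± 0.08 (edgeR adjusted p = 0.903), with a 95% interval of −0.20 to 0.17. SLC11A2 is spliced to forms with and without an IRE, which a count per gene does not separate. The search for the stem-loop matched 0 of its 18 protein-coding transcripts, so that search does not find every IRE. The log2 changes of the 8 tested genes with their errors are plotted together.

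**Figure D2:**
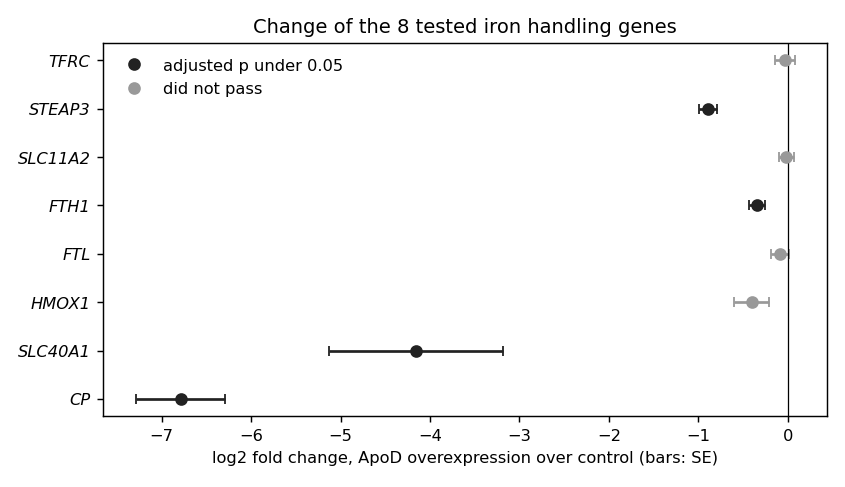
Points are log2 fold changes of ApoD overexpression over control for the 8 tested genes, with bars for the SE and black for those that passed an edgeR adjusted p of 0.05. CP (−6.79) and SLC40A1 (−4.15) lie far to the left, STEAP3 and FTH1 nearer to 0, and the bars of TFRC, SLC11A2 and FTL reach 0.

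FTH1, the heavy ferritin chain, carries the ferroxidase site of the ferritin shell. It was among the most abundant transcripts of these cells, with rank 3 by mean FPKM in controls and rank 4 with ApoD overexpression. It stood at 8862, 9076 and 8470 CPM in controls and at 6671, 7442 and 6679 CPM with ApoD overexpression. The groups did not overlap. The change was −0.34 ± 0.09 (edgeR adjusted p = 0.00646), and the call was lost when ApoD overexpression replicate 1 was left out (adjusted p = 0.0558) and when replicate 3 was (0.0815). Of 8 genes with a mean control count within 2-fold of that of FTH1, 62.5% were called lower and 0 higher, with a median change of −0.30, and 4 of the 8, FTH1 included, were at least as low. FTL, the light chain, serves iron nucleation in the shell. It stood at 1690, 1451 and 1544 CPM in controls and at 1352, 1668 and 1399 CPM with ApoD overexpression. The groups overlapped because ApoD overexpression replicate 2 was as high as the controls. Its change was −0.08 ± 0.10 (edgeR adjusted p = 0.527), with a 95% interval of −0.31 to 0.14. With the abundance trend removed FTL was called lower, at −0.29 (adjusted p = 0.0116). Both ferritin genes have processed pseudogenes, whose reads the counting could have shared.

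The heavy and light chains can be compared within each library without any scaling between libraries. The ratio of FTH1 to FTL in FPKM was 3.80, 4.53 and 3.97 in controls and 3.57, 3.23 and 3.46 with ApoD overexpression. All ApoD overexpression libraries were below all controls, a difference of −0.26 on the log2 scale (two-sided exact permutation p = 0.10, the smallest that 3 against 3 libraries can give; 0.15 adjusted by Benjamini-Hochberg over 3 ratios). Leaving out each library in turn gave −0.31 to −0.18. The ratio of TFRC to STEAP3 was 4.01, 2.88 and 3.11 in controls and 6.33, 4.94 and 6.56 with ApoD overexpression, again with no overlap (exact permutation p = 0.10, 0.15 adjusted). The ratio of TFRC to FTH1 was 0.0152, 0.0134 and 0.0137 in controls and 0.0198, 0.0137 and 0.0194 with ApoD overexpression, where ApoD overexpression replicate 2 lay among the controls (exact permutation p = 0.30, also 0.30 adjusted). These 3 ratios were chosen after the genes' values were seen.

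**Figure D3:**
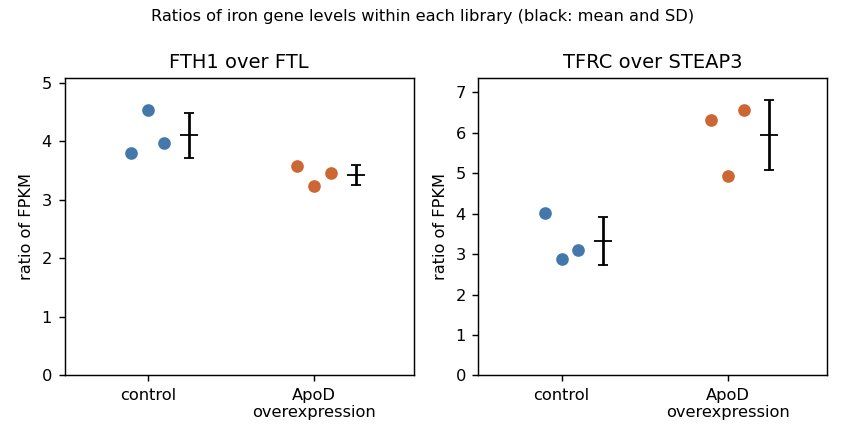
Each panel gives a ratio of FPKM values within a library, for 3 control libraries (blue) and 3 with ApoD overexpression (orange), with the mean and SD in black. FTH1 over FTL is 4.10 ± 0.381 in controls and 3.42 ± 0.173 with ApoD overexpression, and TFRC over STEAP3 is 3.33 ± 0.598 and 5.94 ± 0.875.

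HMOX1 encodes the inducible heme oxygenase, which frees iron from heme. It stood at 5.63, 5.88 and 7.44 CPM in controls and at 4.65, 5.58 and 4.12 CPM with ApoD overexpression. The groups did not overlap, but control replicate 1 and ApoD overexpression replicate 2 lay almost at the same level. The change of −0.40 ± 0.19 did not pass (edgeR adjusted p = 0.104), with a 95% interval of −0.82 to 0.02. It was −0.25 without control replicate 3 (adjusted p = 0.386). HMOX1 was called lower with scaling by library totals, at −0.52 (adjusted p = 0.0474), and on filtered log2(FPKM + 1), at −0.40 (adjusted p = 0.0233). It was not called on unfiltered log2(FPKM + 1) (adjusted p = 0.0806), and with the abundance trend removed its change was −0.12 (adjusted p = 0.635).

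Per length, the order of levels in controls was FTH1 at 7616 ± 166, FTL at 1866 ± 132, TFRC at 107 ± 6.04, STEAP3 at 32.7 ± 3.97, SLC11A2 at 13.8 ± 0.526 and HMOX1 at 4.24 ± 0.753 FPKM (SD, n = 3). CP at 0.814 and SLC40A1 at 0.106 ± 0.0322 FPKM followed. No neighbours among these 8 overlapped in the controls. TF and HEPH were the lowest, both under 0.01 FPKM in every control library, and their libraries overlapped. The order of the 6 highest was the same with ApoD overexpression. There FTH1 stood at 5527 ± 284, FTL at 1622 ± 165, TFRC at 96.7 ± 14.6, STEAP3 at 16.3 ± 0.579, SLC11A2 at 12.6 ± 0.318 and HMOX1 at 2.95 ± 0.425 FPKM. SLC40A1, TF, CP and HEPH had mean values from 0.00457 to 0.00638 FPKM and were not separated from each other.

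The members with a printed iron-responsive element had unlike changes. TFRC, with 4 elements found, had a change of −0.04, FTL with 1 had −0.08, and SLC40A1 with 1 had −4.15. The SLC40A1 element was in 1 of its 5 protein-coding transcripts. FTH1, which the search also found with the element in its 5' UTR but which is not printed, changed by −0.34. Of the 28 genes found by sequence, 20 were tested, 5 rose and 6 fell, beside 24.2% and 24.6% of all tested genes. Their median change was −0.01 against −0.02 for all tested genes. Of the 11 with the element in a 3' UTR, 9 were tested, 2 rose and 3 fell. Of 7 with it in a 5' UTR, 5 were tested, 2 rose and 2 fell. Of 11 with it in a coding region, 7 were tested, 2 rose and 1 fell, and TMEM132A counts in both of these sets. A match by sequence is not a measured IRP binding site, so the 28 are not all known IRE genes. This search was chosen after the fold changes had been computed. A list of 5 further known IRE transcripts outside the members overlaps the 28 genes, since both hold CDC14A and ALAS2. Of these listed transcripts 4 were tested, and edgeR called 0 of them. At an unadjusted p under 0.05, 1 was lower by edgeR, and DESeq2 called 1 lower. Among them EPAS1, CDC14A and CDC42BPA had changes of −0.20, 0.19 and −0.35. ALAS2, the erythroid heme synthesis enzyme, was not listed.

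Promoters of SLC40A1 and STEAP3 are shown because both genes fell, and that of TFRC because it did not pass the test. RefSeq promoter sequences of GRCh38.p14 were matched for 7 of the 10 members, and the 250 bases before the annotated start were searched on both strands. The motifs were the antioxidant response core TGACNNNGC (in 10.9% of 35116 promoters of this length), the hypoxia response cores ACGTG (18.5%) and GCGTG (32.2%), and the AP-1 motif TGANTCA (6.57%). Capitals mark a match. The 3 windows lie at chr2:189580787-189581036 on the minus strand, chr2:119223584-119223833 on the plus strand and chr3:196082091-196082340 on the minus strand.
SLC40A1 promoter: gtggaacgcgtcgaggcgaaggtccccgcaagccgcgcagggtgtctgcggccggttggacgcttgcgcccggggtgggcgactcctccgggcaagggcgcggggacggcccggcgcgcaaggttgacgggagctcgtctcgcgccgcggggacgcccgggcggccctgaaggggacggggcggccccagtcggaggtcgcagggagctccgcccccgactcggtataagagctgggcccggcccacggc
STEAP3 promoter: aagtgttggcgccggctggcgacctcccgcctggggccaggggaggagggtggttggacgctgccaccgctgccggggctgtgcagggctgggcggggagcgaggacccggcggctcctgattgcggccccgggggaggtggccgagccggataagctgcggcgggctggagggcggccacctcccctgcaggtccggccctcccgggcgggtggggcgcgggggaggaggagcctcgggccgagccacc
TFRC promoter: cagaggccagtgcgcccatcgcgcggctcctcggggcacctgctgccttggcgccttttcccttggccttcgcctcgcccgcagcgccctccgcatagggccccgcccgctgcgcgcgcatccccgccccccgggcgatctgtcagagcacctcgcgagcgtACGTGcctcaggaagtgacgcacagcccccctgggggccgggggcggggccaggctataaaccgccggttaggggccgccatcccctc
The TFRC window held 1 ACGTG and none of the other motifs, and the windows of SLC40A1 and STEAP3 held none of the 4. Among the other matched members, the FTL window held 1 ACGTG and 2 GCGTG. SLC11A2 has several windows, with up to 3 GCGTG in one of them and 1 AP-1 motif in another. The windows of HEPH and TF held none of the 4, and CP, FTH1 and HMOX1 had no promoter entry. A match is a string of letters and not a measured binding site.

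Other genes of iron, heme and copper handling, 105 in 8 lists, were examined to place the members. Of the 91 that were tested 33 rose and 15 fell, which is 36.3% and 16.5%, against 24.2% and 24.6% of all tested genes. Their median change was 0.16 against −0.02 for all tested genes. The lean to higher depended on the processing. With the trend of change on abundance removed, 30 of the list genes rose and 21 fell, beside 3238 and 3379 of all tested genes. With library totals 27 rose and 21 fell, beside 2580 and 4435 of all tested genes. The shares over all tested genes stand as the comparison for each list below. The lists are plotted together by role.

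**Figure D4:**
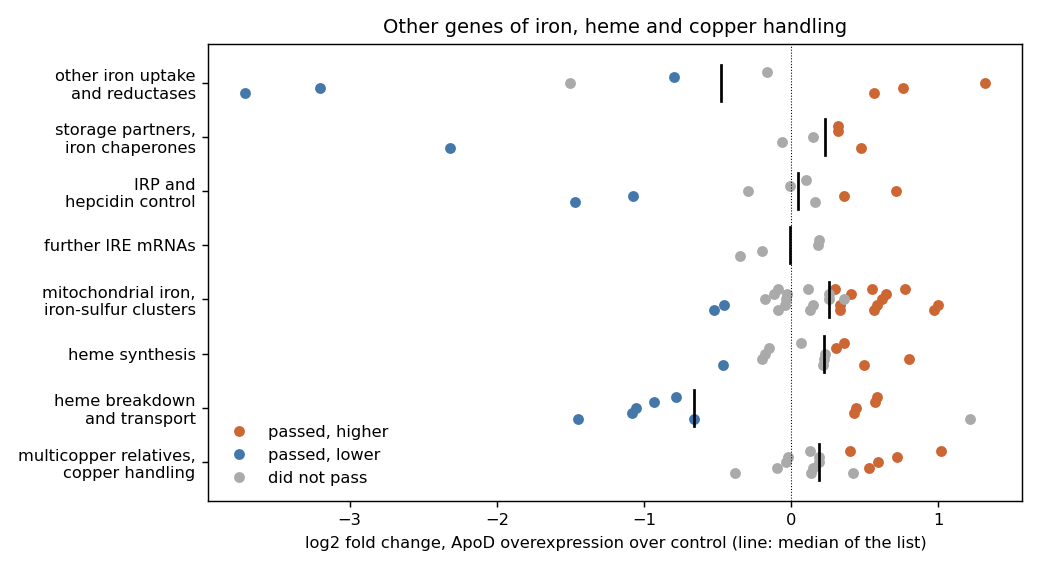
Each point is the log2 fold change of a tested gene, ApoD overexpression over control, in 8 lists of iron, heme and copper genes. Orange passed as higher, blue passed as lower and grey did not pass, and black lines are list medians, which lie at −0.48 for other uptake genes, −0.66 for heme breakdown and transport, and 0.26 for iron-sulfur cluster genes.

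Among 12 other iron uptake and reductase genes 8 were tested, 3 rose and 3 fell (37.5% each), with a median of −0.48. STEAP1, a relative of STEAP3, rose from 79, 129 and 135 counts to 326, 239 and 227, a change of 1.32 ± 0.23 (edgeR adjusted p = 0.000654). STEAP4, a ferric and cupric reductase, fell from 28, 31 and 16 counts to 4, 0 and 1, a change of −3.71 ± 0.80 (edgeR adjusted p = 0.00234). STEAP4 entered the test only through its control counts, so its low side was fixed by the filter. CYBRD1, the duodenal cytochrome b reductase, fell by 0.79 ± 0.14, and LCN2, which carries iron bound to siderophores, changed by −3.20 ± 0.27. SLC39A14 and SLC39A8, zinc transporters that also import iron not bound to transferrin, rose by 0.76 ± 0.09 and 0.56 ± 0.10 and are named after their values were seen. Their change was thus opposite to that of CYBRD1.

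Of 8 storage partners and cytosolic iron chaperones 6 were tested, 3 rose (50%) and 1 fell (16.7%). PCBP1 and PCBP2, RNA-binding proteins that also deliver iron to ferritin, rose by 0.32 ± 0.09 each, and GLRX3, a glutaredoxin that handles iron-sulfur clusters, by 0.48 ± 0.10. The call of PCBP1 was lost without control replicate 3 (adjusted p = 0.0513) and that of PCBP2 without control replicate 2 (0.0542). With the abundance trend removed neither was called (PCBP1 0.12, PCBP2 0.11). PCBP3 fell from 40, 49 and 94 counts to 20, 2 and 12, and needed its control counts to enter the test. NCOA4, the receptor that takes ferritin to the lysosome, was named after its value was seen and had a change of −0.06 ± 0.08 that did not pass.

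Of 11 genes of IRP and hepcidin control 8 were tested, 2 rose and 2 fell (25% each). ACO1 encodes IRP1, which binds IREs when it lacks its iron-sulfur cluster, and IREB2 encodes IRP2. ACO1 had 1579, 1779 and 1676 counts in controls and 767, 676 and 767 with ApoD overexpression, with no overlap, and fell by 1.07 ± 0.10 (edgeR adjusted p = 8.98e-06). IREB2 had a change of −0.29 ± 0.12 that did not pass (adjusted p = 0.0577). Its libraries did not overlap either, which held for 58.7% of all tested genes. FBXL5, which marks IRP2 for degradation when iron is ample, had a change of 0.00 ± 0.12; like IREB2 it is named after its value was seen. ERFE, a suppressor of hepcidin, fell by 1.47 ± 0.19, while BMP6, an inducer of hepcidin, and the protease FURIN rose by 0.71 ± 0.14 and 0.36 ± 0.09. Hepcidin itself, HAMP, had 1 count in all.

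All 27 genes of mitochondrial iron import and iron-sulfur cluster assembly were tested. Of these 12 rose (44.4%) and 2 fell (7.41%), against 24.2% and 24.6% of all tested genes, with a median of 0.26. With library totals 9 rose and 3 fell. BOLA3, a late-acting assembly factor, rose by 1.0 ± 0.11. The mitochondrial chaperone HSPA9 rose by 0.78 ± 0.13 and LYRM4, a partner of the cysteine desulfurase, by 0.65 ± 0.10. The genes that fell were FDXR, the reductase of mitochondrial ferredoxin, at −0.53 ± 0.12, and the iron importer SLC25A28 at −0.46 ± 0.11, both named after their values were seen.

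Heme synthesis had 12 tested genes of 13, of which 4 rose (33.3%) and 1 fell (8.33%). SLC25A38, a mitochondrial glycine carrier, rose by 0.80 ± 0.10, UROS by 0.50 ± 0.12 and the transporter ABCB10 by 0.36 ± 0.10, while PPOX fell by 0.46 ± 0.15. With library totals 2 rose and 2 fell. The call of ABCB10 was lost without control replicate 2 (adjusted p = 0.0569), and that of PPOX without control replicate 2 (0.106), the ApoD overexpression replicates 1 (0.0955) or 3 (0.111).

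On the breakdown and transport side of heme, where HMOX1 stands, 11 of 14 genes were tested, 4 rose (36.4%) and 6 fell (54.5%). The biliverdin reductases BLVRA and BLVRB, which follow heme oxygenase in heme breakdown, fell by 1.08 ± 0.11 and 1.05 ± 0.13. BLVRA had 3094, 3365 and 3156 counts in controls and 1581, 1403 and 1210 with ApoD overexpression. The receptor LRP1, which takes up the heme carrier hemopexin among many ligands, fell by 1.45 ± 0.12, and the exporter ABCG2 by 0.93 ± 0.18. The 4 genes that rose, named after their values were seen, were the constitutive oxygenase HMOX2 at 0.43 ± 0.10, the heme exporter FLVCR1 at 0.58 ± 0.10, SLC46A1 at 0.57 ± 0.09 and PGRMC1 at 0.45 ± 0.09. BACH1, a heme-sensing repressor of HMOX1 and ferritin genes that is also named after its value was seen, had a change of −0.66 ± 0.18 (edgeR adjusted p = 0.00885).

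Ceruloplasmin needs copper, and 16 genes of copper handling and multicopper relatives were examined. Of these 15 were tested, 5 rose (33.3%) and 0 fell. At an unadjusted p under 0.05, 1 was lower by edgeR, and DESeq2 called 0 lower. SLC31A2, a copper transporter of late endosomes, rose by 1.02 ± 0.13, and the copper chaperones of cytochrome oxidase SCO2, SCO1 and COX11 by 0.72 ± 0.15, 0.59 ± 0.10 and 0.53 ± 0.10. The copper importer SLC31A1 and the pumps ATP7A and ATP7B, which load copper onto secreted proteins such as ceruloplasmin, are named after their values were seen. Their changes of 0.19 ± 0.09, −0.38 ± 0.16 and 0.13 ± 0.12 did not pass.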

How the data were processed

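Per the file headers, the authors deposited read counts, not normalized, and FPKM values, both per gene symbol for the 6 libraries. All 108650 FPKM values above 0 equalled the count over the column total and a fixed gene length (relative tolerance 1e-06). The counting program, aligner, strand setting and genome build were not given in the sources used here. Columns were matched to samples by title.

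For the main test, edgeR 4.0.16 in R 4.3.3 fitted the quasi-likelihood model to both groups (TMM scaling, filterByExpr with a minimum count of 10, two-sided, Benjamini-Hochberg over 14629 genes, threshold 0.05). Each SE is the size of the log2 change over the square root of F. The fit was also run on simulated counts in which far fewer genes changed than pass here. That run does not measure its error in these data. All members, and up to 4 called genes of each list by size of change, were named, except that some items are not reported here. The members, lists, tests and alternatives were chosen with earlier results of these data known. Alternatives used DESeq2 1.42.0 and limma 3.58.1. Leaving libraries out of the FTH1 to FTL ratio was added after seeing the data. Depth per library is given with the results, and it limits the precision of SLC40A1, TF and HEPH most.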

Additional observations from a re-analysis of the deposited data

How the results depend on the processing

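The number of members called lower was 4 in the main test, 5 with library totals or with the abundance trend removed, 3 on the FPKM scales and with a test against a 1.5-fold change (glmTreat), and 3 to 4 when each library was left out in turn. The members called were not always the same. The added gene was HMOX1 with library totals and FTL with the abundance trend removed. CP and SLC40A1 were dropped by the filter on FPKM, which gave no value for them there. Filtered FPKM called STEAP3, FTH1 and HMOX1, while unfiltered FPKM and glmTreat called CP, SLC40A1 and STEAP3. On unfiltered log2(FPKM + 1) CP changed by −0.85 and SLC40A1 by −0.14, since the pseudocount outweighs such low levels. The call of FTH1 was lost on unfiltered log2(FPKM + 1) (adjusted p = 0.195) and with glmTreat. Members near 0 turned sign when single libraries were left out: TFRC ran from −0.078 to 0.066 (0.03 without control replicate 1, the highest without ApoD overexpression replicate 2), FTL from −0.19 to 0.0021 (the highest without ApoD overexpression replicate 1) and SLC11A2 from −0.036 to 0.033 (the highest without control replicate 1, and 0.0036 and 0.0052 without ApoD overexpression replicates 1 and 3). SLC11A2 was 0.0087 with no filter. Library totals moved the median change of all genes to −0.13.

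Some list counts moved by over 1.5 times, and the cause was not tested. With glmTreat, which asks for more than a 1.5-fold change, the genes called higher were 1 in other uptake, 0 in storage partners, 0 in IRP and hepcidin control, 2 in iron-sulfur genes, 1 in heme synthesis, 0 in heme breakdown and 1 in copper handling. Those called lower were 0 in iron-sulfur genes, 0 in heme synthesis and 3 in heme breakdown. Over all lists glmTreat called 5 higher and 8 lower, and over all genes 545 higher and 1430 lower. With the abundance trend removed 1 storage partner and 1 IRP and hepcidin gene were higher, and 2 storage partners were lower. On filtered log2(FPKM + 1) and log2(FPKM + 0.1), 0 storage partners were lower. Of further IRE transcripts, 1 was lower with DESeq2 size factors, the DESeq2 Wald test, no filter, the replicate block and unfiltered FPKM. It was 2 with library totals, the trend removed and both filtered FPKM scales. Heme synthesis had 2 higher and 2 lower with library totals and on all 3 FPKM scales. In copper handling 1 gene was lower with DESeq2 size factors, library totals, the trend removed, no filter and both filtered FPKM scales. Unfiltered FPKM called 2317 genes higher.

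Leaving out each library gave 3 to 5 other uptake genes lower, 0 to 1 further IRE transcripts higher and 0 to 1 lower, 2 to 4 heme synthesis genes higher and 0 to 1 lower, 0 to 1 copper genes lower, and 2690 to 3712 genes higher and 2764 to 3807 lower over the whole table. With each gene's log2 CPM centred within its group, same-numbered libraries of both groups had correlations of −0.12, −0.01 and −0.04. Libraries of unlike number had correlations from −0.05 to 0.08. These values show no shared effect of the numbers, and they cannot tell whether libraries were paired. With the replicate block 4 members were called lower and CP changed by −6.77 (edgeR adjusted p = 1.21e-06).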
